A study of Rattus norvegicus with 8 samples.

Results

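Il1rl1-high cells are the callus cells that carried the most transcript of Il1rl1, the gene for ST2, the receptor of interleukin 33. They were chosen from all 8 libraries of a single-cell RNA sequencing study of rat fracture callus, the tissue that forms between the ends of a broken bone, as cell barcodes with at least 5000 unique molecular identifiers (UMIs, each standing for 1 captured transcript) and at least 10 UMIs of Il1rl1. This gave 4662 cells out of 69624 barcodes, or 7.15% of the 65208 barcodes with at least 5000 UMIs. They were set against the Il1rl1-low cells of the same library, which are the 47323 cells that passed the same 5000 UMIs and held at most 1 UMI of Il1rl1. The 13223 cells between these limits belonged to neither side. Each library had more than 50 cells on both sides, so all 8 were used.

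The libraries came from Sprague Dawley rats, with 1 library for each of 4 treatments at week 12 and week 4 after a closed fracture of 1 femur. The CGRP rats received zoledronate and calcitonin gene-related peptide, the magnesium rats received zoledronate and magnesium, the zoledronate rats received zoledronate alone, and the control rats are labelled untreated. Zoledronate, a bisphosphonate that blocks bone resorption, was injected under the skin at 0.3 mg/kg per week for 12 weeks before the fracture. Callus cells were freed with collagenase A over 4 h and kept in a dish for 24 h, so all groups are of cells that had spent a day in culture. The labels mention steel and magnesium-containing nails without assigning them to groups, and the sources used here do not say how many animals a library holds. The p-values below therefore measure the spread among 8 libraries that differ in treatment and week, and which may be pools or single animals.

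Il1rl1 lies in a chromosomal cluster of interleukin 1 receptor family genes. Its protein pairs with the accessory protein IL1RAP to bind interleukin 33, a nuclear cytokine that stromal cells release when damaged, and signals through MYD88, IRAK kinases and TRAF6 to NF-kB and MAP kinases. The receptor is best known on mast cells, group 2 innate lymphoid cells and T helper cells, but the gene was first found as a serum-induced gene of growing mouse fibroblasts, which can also secrete a soluble form that binds interleukin 33 without signalling. Summed gene counts cannot tell the soluble and the membrane form apart.

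A pair of promoters is printed because the results turn on the gene that chose the cells and on the mitotic genes that were higher in them. Each runs from 250 bases before to 50 bases after the start of transcription, 5′ to 3′ on the strand of the gene, from RefSeq on build GRCr8, which is not the build of the counts. Capitals mark TTTGAA, the core letters of the cell cycle homology region (CHR), and CCAAT, searched on both strands, so that a site on the other strand reads TTCAAA or ATTGG. These letters do not overlap each other in either window.

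Il1rl1 (chr9:50203388-50203687, + strand): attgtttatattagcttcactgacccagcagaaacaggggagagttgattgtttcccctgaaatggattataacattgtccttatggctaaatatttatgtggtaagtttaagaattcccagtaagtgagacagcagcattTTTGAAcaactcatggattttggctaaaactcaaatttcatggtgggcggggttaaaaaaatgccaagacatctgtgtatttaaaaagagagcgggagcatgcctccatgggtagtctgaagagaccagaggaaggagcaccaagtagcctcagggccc

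Top2a (chr10:84473044-84473343, - strand): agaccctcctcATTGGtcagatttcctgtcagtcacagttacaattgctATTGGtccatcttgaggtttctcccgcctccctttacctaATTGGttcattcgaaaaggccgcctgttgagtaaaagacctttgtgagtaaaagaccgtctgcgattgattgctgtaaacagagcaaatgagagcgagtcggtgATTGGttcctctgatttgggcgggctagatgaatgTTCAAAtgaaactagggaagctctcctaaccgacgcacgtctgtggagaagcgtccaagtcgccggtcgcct

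Il1rl1 held 1 TTTGAA and 0 CCAAT, and Top2a, the topoisomerase that untangles chromosomes before division, held 1 and 4. Across 33469 RefSeq promoters of this length, 18.4% held TTTGAA and 37.5% held CCAAT. Of the 20 cell cycle genes described below, 15 had a promoter in the table, and of these 8 held TTTGAA and 12 held CCAAT. The AP-1 letters TGANTCA, present in 7.33% of all promoters, were in 0 of the 15. Of the genes named by rule below, 9 higher and 10 lower ones had a promoter in the table. TTTGAA was in 3 of the 9 and 2 of the 10, and CCAAT in 5 of the 9 and 5 of the 10. A match of letters is a description and not a site of binding.

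The number of Il1rl1-high cells was set mostly by 1 library. Control week 12 held 2374 of them, 50.9% of the total, and the other libraries held 211 to 446 each. As a share of the cells with at least 5000 UMIs, Il1rl1-high cells made up 3.59% in CGRP, 3.81% in magnesium, 3.30% in zoledronate and 30.5% in control callus at week 12. At week 4 the shares were 5.54% in CGRP, 3.99% in magnesium, 4.68% in zoledronate and 3.10% in control callus. The 95% Clopper-Pearson intervals, which cover counting error alone, were 29.5 to 31.6% for control week 12, and for the other libraries they lay between 2.70% and 6.06%. Since a fixed number of UMIs is easier to reach in a deep cell, each cell was also thinned to 5000 UMIs. The share with at least 3 Il1rl1 UMIs was then 32.2% in control week 12 and 3.01% to 5.62% in the other libraries. Il1rl1-low cells made up 25.5% of control week 12 and 75.02% to 83.5% of the others. Il1rl1 chose the cells, so these shares are given as a description, with no test. Values without control week 12 stand beside the results below whose calls it changed.

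**Figure D1:**
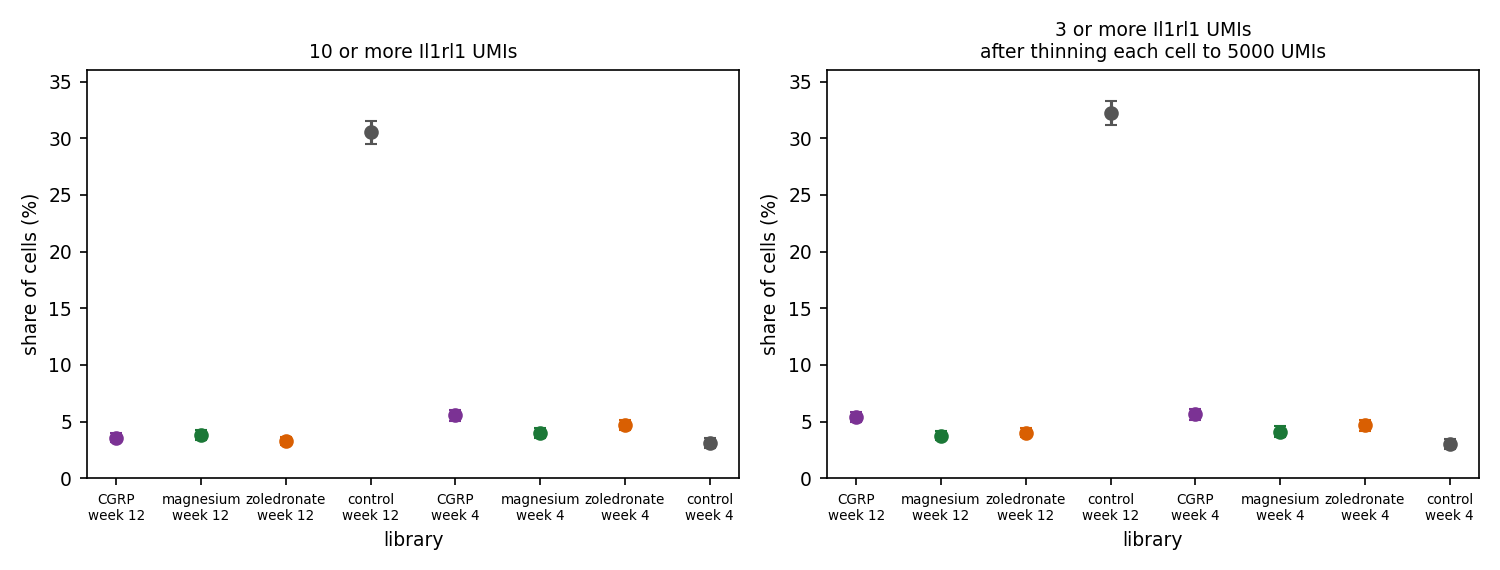
Share of cells (%) that were Il1rl1-high in each library, as counted (left) and after thinning each cell to 5000 UMIs (right), with 95% Clopper-Pearson intervals. Control week 12 stands at 30.5% and 32.2%, and the other 7 libraries stand at or below 5.62%.

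The choice itself fixed the level of Il1rl1, which is given without a test. The CPM (UMIs per 1000000 UMIs of the summed cells) of Il1rl1 had a lowest, median and highest value of 668, 869 and 1245 in Il1rl1-high cells of the 8 libraries, against 8.25, 9.61 and 30.3 in Il1rl1-low cells. The median Il1rl1-high cell held 13 to 18 Il1rl1 UMIs, and the largest counts in a cell were 62 to 183. Near the limit, 962 cells held 10 or 11 UMIs and 1350 held 8 or 9, and 1777 held 20 or more. Il1rl1-high cells held 40.0% to 78.0% of a library's Il1rl1 UMIs, which follows in part from the rule. Any 2 libraries shared 13 to 31 barcodes.

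Il1rl1-high cells were also deeper. Their median total was 17765 to 24620 UMIs per library, against 12104.5 to 20072 UMIs in Il1rl1-low cells, and it was higher in all 8 libraries. After thinning to 5000 UMIs, the median number of genes per cell was 1658 to 1730 in Il1rl1-high and 1595 to 1673 in Il1rl1-low cells. An alternative fit therefore matched the sides on depth.

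The defining markers of stromal cells were high on both sides. Summed over 10 fibroblastic genes, the level was 29530 to 45710 CPM in Il1rl1-high and 28410 to 50190 CPM in Il1rl1-low cells. Col1a1, the main chain of type I collagen, alone had 12550, 15700 and 21710 CPM (lowest, median, highest) in Il1rl1-high cells and 13680, 20370 and 24260 CPM in Il1rl1-low cells. As medians over cells, the fibroblastic markers took 285 to 451 UMIs per 10000 in Il1rl1-high and 269 to 499 in Il1rl1-low cells, and the contractile markers 138 to 286 and 131 to 248. Mast cell, macrophage and skeletal muscle markers had a median of 0 on both sides.

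Of 10 mast cell markers, Kit, Cpa3, Fcer1a, Ms4a2, Tpsab1, Tpsb2 and Cma1 were listed in no library under these symbols and were not analysed here. Hdc, the histamine-forming enzyme, reached at most 0.29 CPM in Il1rl1-high and 0.21 CPM in Il1rl1-low cells. The transcription factor Gata2 had 0.997 to 8.13 CPM in Il1rl1-high and 1.26 to 7.72 CPM in Il1rl1-low cells. Mcpt1, a mast cell protease listed in 4 libraries, had 413 UMIs in the Il1rl1-high cells of control week 12, or 8.72 CPM, against 5.48 CPM in its Il1rl1-low cells. In that library 7.67% of Il1rl1-high and 5.14% of Il1rl1-low cells held a UMI of it, unthinned, and in the other 3 it stood at or below 0.29 CPM in Il1rl1-high and 0.12 CPM in Il1rl1-low cells. Control week 12 is also the library with the most Il1rl1, and the part of mast cell transcripts in its results was not tested. Summed over all listed mast cell markers, the level was 1.16 to 15.2 CPM in Il1rl1-high and 1.36 to 10.5 CPM in Il1rl1-low cells. Ptprc, the pan-leukocyte surface protein CD45, had 2 UMIs in all Il1rl1-high cells of the 2 libraries that list it, and Gata3, a factor of T helper and innate lymphoid cells, had 15 UMIs in those of all 8. The listed T cell and ILC2 markers summed to 76.0 to 102 CPM in Il1rl1-high and 40.1 to 84.4 CPM in Il1rl1-low cells, and Thy1, a surface protein that fibroblasts also carry, supplied 73.0 to 101 and 38.8 to 80.9 CPM of it. Cd3e and Rora of this list were likewise listed in no library and were not analysed here. Macrophage markers summed to 9.63 to 21.0 CPM in Il1rl1-high and 12.0 to 24.3 CPM in Il1rl1-low cells, and were lower in the Il1rl1-high cells of all 8 libraries. Cd14 supplied 8.69 to 12.2 CPM of this in Il1rl1-high and 10.7 to 15.9 CPM in Il1rl1-low cells. Lyz2, lysozyme, listed in 5 libraries, reached 8.56 CPM in the Il1rl1-high and 8.82 CPM in the Il1rl1-low cells of CGRP week 12, and 52 of its 59 UMIs in those Il1rl1-high cells were in 1 cell. Csf1r was at most at 1.63 and 0.48 CPM. Endothelial markers summed to 37.1 to 56.3 CPM in Il1rl1-high and 37.4 to 51.0 CPM in Il1rl1-low cells, mostly Egfl7, with Pecam1 at most at 0.88 and 0.64 CPM. Skeletal muscle markers summed to 2.07 to 7.38 CPM in Il1rl1-high and 3.33 to 7.84 CPM in Il1rl1-low cells. Also listed in no library were Adgre1, C1qa, C1qb and C1qc (macrophage), Cdh5, Emcn and Cldn5 (endothelial), and Myod1, Myog, Pax7 and Ckm (skeletal muscle). The sums rest on the other markers of each list. For these 5 types, the tested markers were 1 mast cell, 3 T cell and ILC2, 2 macrophage, 2 endothelial and 3 skeletal muscle genes. None of them was called in either direction. Mcpt1, listed in 4 libraries, was not among them, and so few genes cannot tell whether such cells were present.

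The comparison of Il1rl1-high with Il1rl1-low cells asked which other genes go with the receptor gene inside the same dish. UMIs were summed per library and side, and the 16 sums were fitted with edgeR's quasi-likelihood test with library as a block. A gene was called at a Benjamini-Hochberg adjusted p under 0.05 and a change of at least 1.5-fold. Of 10077 genes tested besides Il1rl1, 403 were higher (4% of all) and 206 were lower (2.04%), together 6.04%. The adjusted p alone passed 3331 genes (33.1%), most of them with small changes, and the median change over all genes was -0.009 on the log2 scale. Among the called genes, 239 of the higher and 109 of the lower had the same direction in all 8 libraries. Without control week 12, 411 genes were higher and 190 lower, and 377 and 158 of these were shared with the calls on all 8 libraries. With Il1rl1-low cells matched on total UMIs the counts were 230 higher and 106 lower, and without cells holding a UMI of the cycle genes Mki67 or Top2a they were 119 and 114. Matching left fewer low cells, such as 370 of 7996 in CGRP week 12, and 8739 genes were tested. In control week 12 it kept 1622 of 2374 high cells, with median totals of 17241.5 UMIs in Il1rl1-high and 16384 in Il1rl1-low cells. The part of the smaller sums in the fall of calls was not tested.

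**Figure D2:**
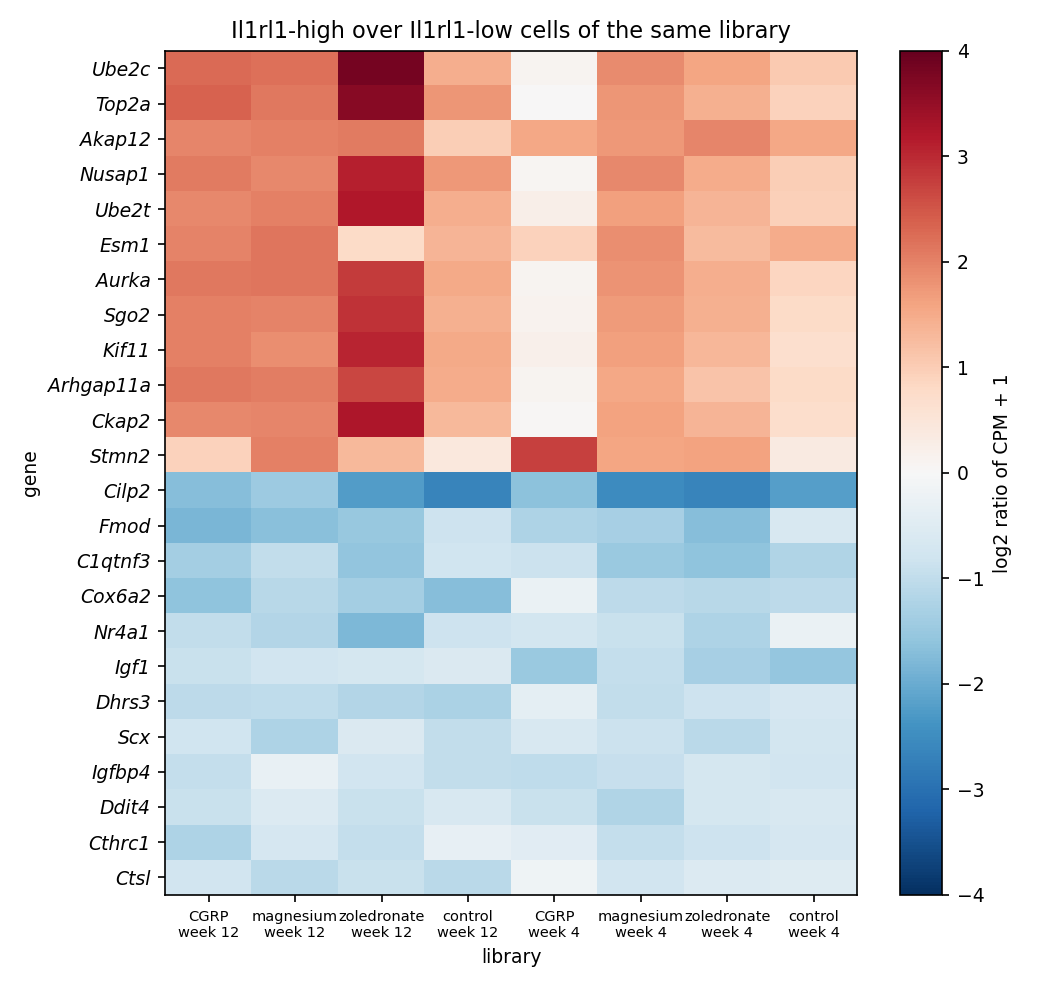
Log2 ratio of CPM + 1 in Il1rl1-high over Il1rl1-low cells for the 24 genes named by rule (rows) in the 8 libraries (columns); red is higher and blue is lower in Il1rl1-high cells. Akap12 is red and Cilp2 blue in every library, while the mitotic genes are near 0 in CGRP week 4 and strongest in zoledronate week 12.

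Genes of cell division made up most of the largest increases among the genes named by rule. Of the 12 named genes with the largest increase, 9 encode proteins of mitosis, cytokinesis or DNA repair: Ube2c, Top2a, Nusap1, Ube2t, Aurka, Sgo2, Kif11, Arhgap11a and Ckap2. Ube2c, the ubiquitin-conjugating enzyme of the anaphase-promoting complex, had 227, 315 and 396 CPM (lowest, median, highest) in Il1rl1-high cells, against 15.1, 99.7 and 318 CPM in Il1rl1-low cells. It was higher in 8 of 8 libraries by 3.29-fold (log2 change 1.72, SE 0.31, adjusted p = 0.00208), although the ranges over libraries overlapped. Top2a had 48.5, 74.8 and 119 CPM in Il1rl1-high and 2.99, 21.7 and 74.6 CPM in Il1rl1-low cells, a log2 change of 1.70 (SE 0.32, adjusted p = 0.00258). Aurkb, a kinase of chromosome segregation, was low, at 6.39 to 11.2 CPM in Il1rl1-high and 0.67 to 6.27 CPM in Il1rl1-low cells (log2 change 1.54, adjusted p = 0.00189). Its ranges just failed to overlap, and the nearest values, 6.39 and 6.27 CPM, were both from CGRP week 4, where the sides hardly differed.

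On the list of 20 cell cycle genes, 18 were called higher and 0 lower, beside 4% and 2.04% of all genes, and the median log2 change was 1.31. The members not called were the replication genes Pcna (log2 change 0.55) and Mcm2 (0.56), which passed the adjusted p (0.000972 and 0.00441) but not the fold. The spread was in the Il1rl1-low cells: Il1rl1-high cells had a summed level of 1348 to 2240 CPM on this list, against 179 to 1908 CPM in Il1rl1-low cells. Matching on UMIs left 16 of the 20 called higher with a median of 0.87. Among cells without a Mki67 or Top2a UMI, 0 of the 17 tested members were higher and 1 was lower, with a median of 0.02. Both genes are on this list and its other members are cycle genes too, so the filter itself largely set this loss of calls. The filter used unthinned counts, so deeper cells were left out more readily.

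The share of cycling cells was counted directly, as cells with a UMI of Mki67 or Top2a after thinning to 5000 UMIs. It was 33.4% ± 4.88 in Il1rl1-high cells and 15.6% ± 10.6 in Il1rl1-low cells (SD, n = 8 libraries). The difference was 17.8 percentage points ± 8.80, with a higher share in 7 of 8 libraries (two-sided exact sign-flip permutation test, p = 0.0156, where the smallest possible p is 0.00781). At week 12 the shares in Il1rl1-high and Il1rl1-low cells were 33.9% and 8.60% for CGRP, 34.1% and 8.80% for magnesium, 23.5% and 2.20% for zoledronate, and 33.0% and 16.3% for control callus. At week 4 they were 35.7% and 36.6% for CGRP, 39.3% and 14.7% for magnesium, 29.9% and 13.2% for zoledronate, and 37.4% and 23.9% for control callus. CGRP week 4 was the exception, with the most cycling Il1rl1-low cells of any library. Without thinning, the shares were 30.7% to 52.1% in Il1rl1-high and 3.93% to 49.98% in Il1rl1-low cells. No cell type that should lack both genes was set apart here, so a background share from free RNA was not measured. The CPM of Mki67 was higher in 7 of 8 libraries and that of Top2a in 8 of 8. In CGRP week 4, Top2a stood at 74.8 CPM in Il1rl1-high and 74.6 CPM in Il1rl1-low cells. These levels come from the same 2 genes as the share and would hold the same background.

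**Figure D3:**
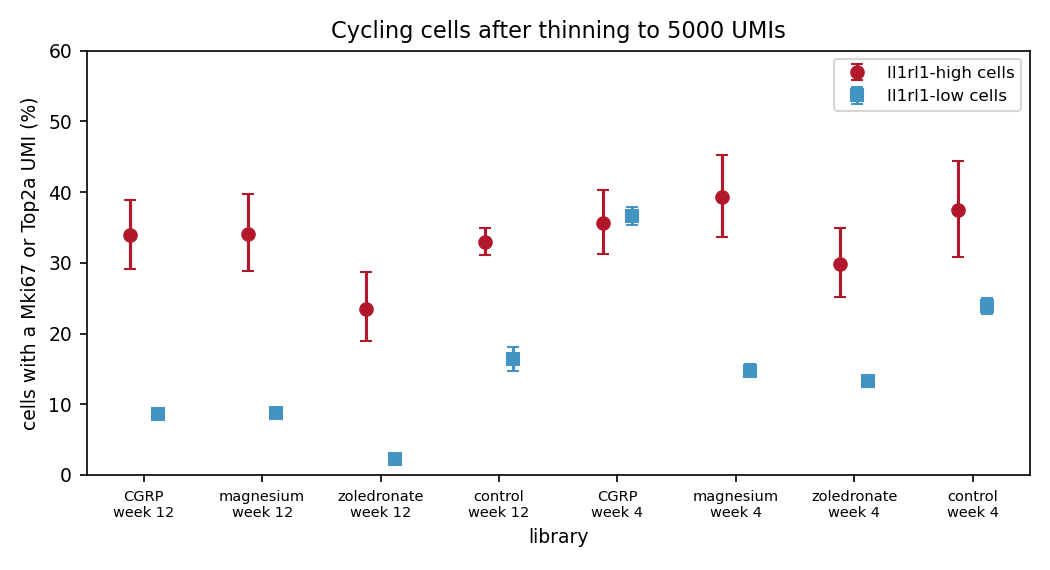
Share of cells (%) with a Mki67 or Top2a UMI after thinning to 5000 UMIs, for Il1rl1-high (red circles) and Il1rl1-low (blue squares) cells of each library, with 95% Clopper-Pearson intervals. Il1rl1-high cells lie between 23.5% and 39.3%, above the Il1rl1-low cells in every library but CGRP week 4.

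Akap12 was the largest increase outside the cell cycle among the genes named by rule. It encodes a scaffold that anchors protein kinases A and C at the membrane. Its level in Il1rl1-high cells at week 12 was 960.4 CPM in CGRP, 527 in magnesium, 528 in zoledronate and 2119 in control callus, and at week 4 it was 749 in CGRP, 423 in magnesium, 425 in zoledronate and 375 in control callus. In Il1rl1-low cells the week 12 levels were 247 CPM in CGRP, 129 in magnesium, 124 in zoledronate and 1071 in control callus, and the week 4 levels were 255 in CGRP, 127 in magnesium, 108 in zoledronate and 129 in control callus. Control week 12, the library with the most Il1rl1, was highest on both sides, and its Il1rl1-low cells exceeded the Il1rl1-high cells of all other libraries. Within each library Akap12 was higher in Il1rl1-high cells, by 3.17-fold in the fit (log2 change 1.66, SE 0.11, adjusted p = 9.95e-06). The change was 1.62 with low cells matched on UMIs, 1.69 without cycling cells and 1.78 without control week 12.

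Esm1 and Stmn2 were higher as well. Esm1, the secreted proteoglycan endocan, had 6.81, 14.4 and 126 CPM in Il1rl1-high cells (lowest, median, highest), against 1.17, 7.71 and 42.4 CPM in Il1rl1-low cells, and was higher in 8 of 8 libraries (log2 change 1.59, SE 0.16, adjusted p = 0.000113). Stmn2, a microtubule-destabilising protein known from neurons, had 7.08, 119 and 660 CPM in Il1rl1-high and 5.30, 35.7 and 268 CPM in Il1rl1-low cells (log2 change 1.39, SE 0.24, adjusted p = 0.00158, higher in 8 of 8). Both varied more between libraries than between the sides. With low cells matched on UMIs and cycling cells left out together, an alternative added after the data were seen, the changes were 1.20 for Esm1 and 1.07 for Stmn2.

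Under that same joint alternative, 78 genes were higher and 72 lower of 7854 tested (0.99% and 0.92%), and 46 and 59 of them were shared with the calls above. The naming rule applied to it listed Akap12 first, at 1.67, and then genes of matrix, growth factors and membranes. Col15a1, a basement membrane zone collagen, had 40.2, 89.3 and 160 CPM in Il1rl1-high and 15.1, 49.1 and 69.4 CPM in Il1rl1-low cells (log2 change 0.84, adjusted p = 0.00165). Tgfb2, a transforming growth factor beta ligand, had 134, 250 and 368 CPM in Il1rl1-high and 61.7, 122 and 242 CPM in Il1rl1-low cells (0.80, adjusted p = 1.16e-06). Has2, which makes hyaluronan, was called here (0.82, adjusted p = 1.51e-06) and not in the fit on all cells (0.39). Other genes this rule listed as higher were Crip1 (0.92), Nrg1 (0.83), Pkp1 (0.83), Gldn (0.78), Ugcg (0.76), Osr1 (0.72) and Csf1 (0.70). Each gene named here was higher in 8 of 8 libraries.

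Of the 13 tested genes of the extracellular proteolysis list, 2 were lower, beside 2.04% of all genes, and the median was -0.06. The lower ones were the protease inhibitors Timp3 (-0.84, adjusted p = 0.00694) and Serpine2 (-0.59, adjusted p = 0.00731), each lower in 7 of 8 libraries. Without cycling cells both stood under the fold limit, Timp3 at -0.57 and Serpine2 at -0.42. The call of Serpine2 was lost, at -0.48 to -0.54, without CGRP, magnesium or zoledronate week 12, and at -0.34 after matching on UMIs.

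Some genes known from tendon, cartilage and bone were among those called lower. Cilp2, a protein of the cartilage intermediate layer, had the largest decrease among the genes named by rule. It had 6.38, 11.5 and 51.3 CPM (lowest, median, highest) in Il1rl1-high cells and 19.3, 59.98 and 245 CPM in Il1rl1-low cells. It was lower in 8 of 8 libraries (log2 change -2.37, SE 0.13, adjusted p = 3.18e-06) and stood at -2.54 with matched low cells and no cycling cells. Scx, the transcription factor scleraxis of tendon precursors, had 183, 305 and 515 CPM in Il1rl1-high and 309, 554 and 773 CPM in Il1rl1-low cells (-0.94, SE 0.07, adjusted p = 2.55e-05). Fmod, fibromodulin, which binds collagen fibrils and is rich in tendon, had 15.3, 25 and 68.2 CPM in Il1rl1-high and 28.0, 67.2 and 120.2 CPM in Il1rl1-low cells (-1.42, SE 0.13, adjusted p = 6.64e-05). The ranges over libraries overlapped for all of them, while every library had the lower value in its Il1rl1-high cells.

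Among 6 tested chondrocyte markers, 2 were lower and 0 higher, beside 2.04% and 4% of all genes, with a median of -0.58. Comp, a matrix protein of cartilage and tendon, fell by 1.71 on the log2 scale (adjusted p = 9.95e-06), with 1.61 to 19.6 CPM in Il1rl1-high and 6.81 to 66.4 CPM in Il1rl1-low cells. Acan, the cartilage proteoglycan aggrecan, fell by 0.66 (SE 0.22, adjusted p = 0.0352), a call that was lost without any of the week 12 libraries (-0.45 to -0.62), after matching on UMIs (-0.37, adjusted p = 0.213) and without cycling cells (-0.66, adjusted p = 0.0551). Among 6 tested osteoblast markers, 2 were lower and 0 higher, beside the same 2.04% and 4% of all genes, with a median of -0.38. Alpl, the bone mineralising alkaline phosphatase, had 2.75, 8.71 and 23.3 CPM in Il1rl1-high and 6.64, 13.9 and 35.9 CPM in Il1rl1-low cells (-0.92, adjusted p = 0.000504, lower in 8 of 8). Pth1r, the parathyroid hormone receptor, fell by 1.27 (adjusted p = 0.00145) at levels under 8 CPM. Runx2, the osteoblast master regulator, was not called (0.09) at 16.9 to 23.6 CPM in Il1rl1-high and 14.6 to 20.8 CPM in Il1rl1-low cells. Sox9, the regulator of cartilage fate, had 53.6 to 114 CPM in Il1rl1-high and 55.1 to 104 CPM in Il1rl1-low cells (-0.26, adjusted p = 0.0115, under the fold limit).

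On the list of 21 tested matrix and fibre genes, 6 were lower and 0 higher, with a median of -0.28, beside 2.04% of all genes lower. The 6 were Fmod, the small leucine-rich proteoglycans Dcn (-0.73), Aspn (-0.73) and Ogn (-0.60), the mineralisation inhibitor Mgp (-0.78) and the matricellular Thbs2 (-0.71). Dcn, decorin, had 1.82, 90.8 and 193 CPM in Il1rl1-high and 3.99, 148 and 379 CPM in Il1rl1-low cells. The main collagens differed less, with Col1a1 at -0.37, Col1a2 at -0.21 and Col3a1 at -0.24. Matching on UMIs left 2 of the list called lower, and leaving out cycling cells left 1, and Fmod was called in both. Dcn stood at -0.39 after matching and at -0.29 (adjusted p = 0.0886) when cycling cells were left out as well. The call of Mgp was lost without CGRP, magnesium, zoledronate or control week 12 or magnesium week 4, with values of -0.58 to -0.83.

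The remaining named genes that were lower are secreted proteins, metabolic enzymes and stress or immediate early genes, and each was lower in 8 of 8 libraries. C1qtnf3, a secreted C1q and tumour necrosis factor related protein, had 26.2, 83.8 and 185 CPM in Il1rl1-high and 48.7, 189 and 518 CPM in Il1rl1-low cells (-1.32, SE 0.09, adjusted p = 1.70e-05). Igf1, insulin-like growth factor 1, had 6.69, 48.5 and 206 CPM in Il1rl1-high and 20.6, 94.5 and 386 CPM in Il1rl1-low cells (-1.08, SE 0.11, adjusted p = 0.000107). Its binding protein Igfbp4 stood at -0.92, and the retinaldehyde reductase Dhrs3 at -1.03. Cox6a2, the muscle isoform of a cytochrome oxidase subunit, was at -1.26, the orphan nuclear receptor Nr4a1 at -1.14, and the mTORC1 inhibitor Ddit4 at -0.90. The secreted Cthrc1 was at -0.84. Ctsl, a lysosomal protease, had 491, 863 and 1534 CPM in Il1rl1-high and 919, 1317 and 3263 CPM in Il1rl1-low cells (-0.80, adjusted p = 0.0003). When low cells were matched on UMIs and cycling cells were left out, Ctsl stood at -0.50 and Ddit4 at -0.52, under the fold limit, and the others named here kept their calls.

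**Figure D4:**
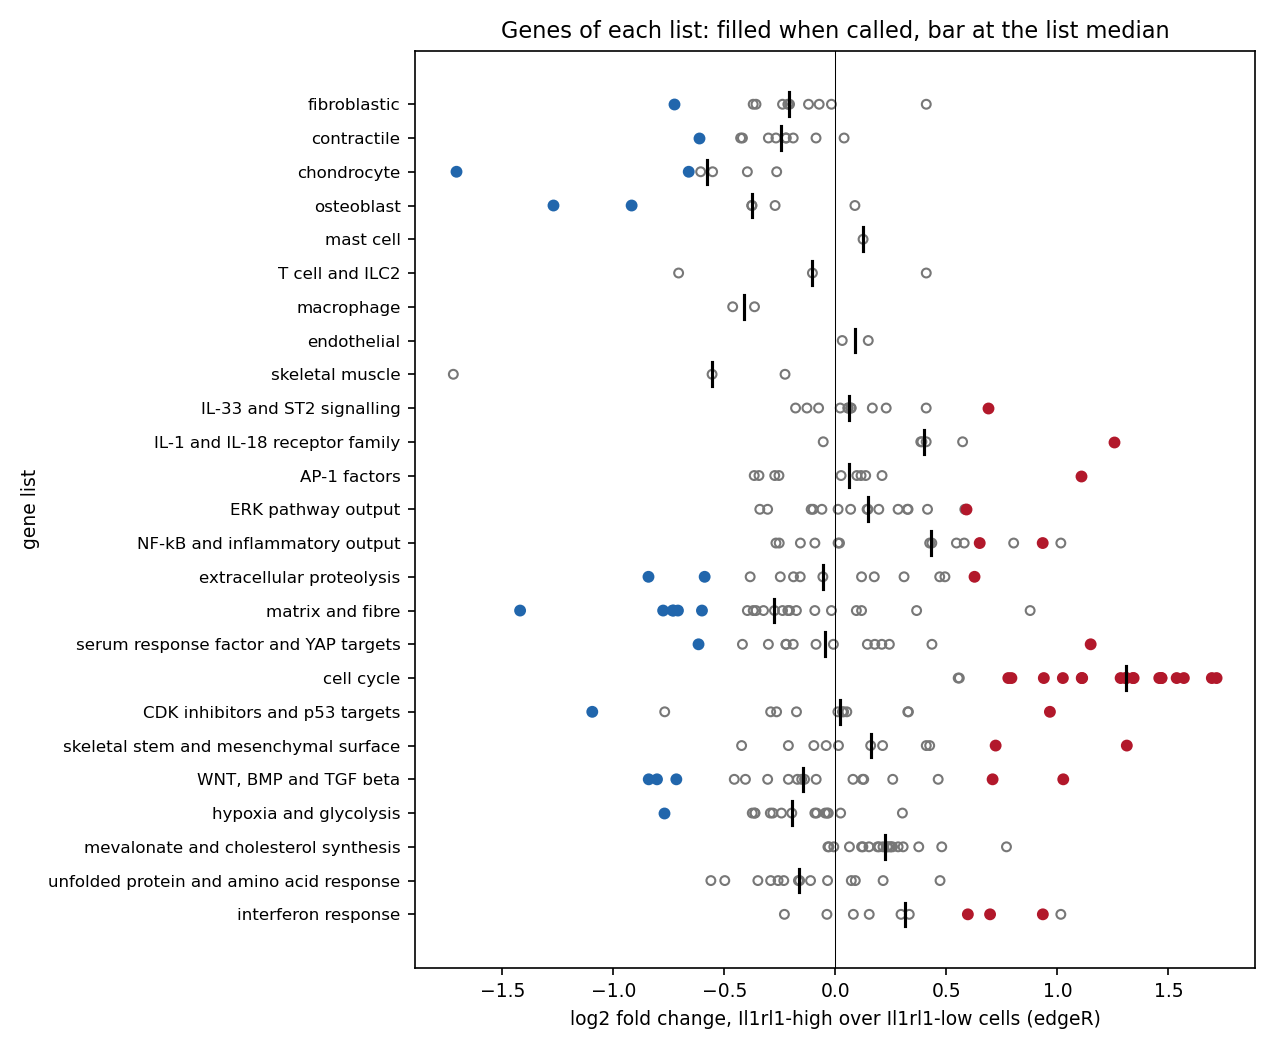
Log2 fold change of each tested gene in Il1rl1-high over Il1rl1-low cells by gene list; filled red or blue points were called higher or lower, open points were not called, and the black bar is the list median. The cell cycle list has 18 of 20 genes called higher and a median of 1.31.

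Few genes of the ST2 pathway were called. Of 12 tested genes of the interleukin 33 and ST2 list, 1 was higher and 0 lower, with a median of 0.06, beside 4% of all genes higher. That gene was Il33, the ligand. Its level in Il1rl1-high and Il1rl1-low cells at week 12 was 123 and 105 CPM in CGRP, 156 and 74.1 in magnesium, 57.2 and 15.6 in zoledronate, and 19.7 and 7.29 in control callus. At week 4 it was 16.8 and 24.6 CPM in CGRP, 5.82 and 5.40 in magnesium, 19.6 and 12.4 in zoledronate, and 19.8 and 10.4 in control callus. It was higher in 7 of 8 libraries (log2 change 0.69, SE 0.22, adjusted p = 0.0333), with CGRP week 4 the exception. The call was lost without control week 12 (0.59, adjusted p = 0.087), zoledronate week 12 (0.51), magnesium week 12 (0.63), control week 4 (0.66) or zoledronate week 4 (0.70). It was 1.21 (adjusted p = 2.74e-05) when low cells were matched on UMIs and cycling cells left out. The signalling genes Myd88 (-0.08), Irak1 (0.07), Irak4 (-0.18) and Traf6 (-0.13) were not called. Nor was the coreceptor Il1rap, which had at most 1.66 CPM in Il1rl1-high and 0.70 CPM in Il1rl1-low cells.

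The genes that RefSeq places beside Il1rl1 in its cluster were sparse. Il1rl2, the interleukin 36 receptor, had 0.73, 2.91 and 10.1 CPM in Il1rl1-high and 1.15, 2.33 and 5.09 CPM in Il1rl1-low cells (log2 change 0.57, adjusted p = 0.0149, higher in 7 of 8), under the fold limit. It passed the limit after matching on UMIs, at 0.80 (adjusted p = 0.0122), and without control week 12, at 0.59 (adjusted p = 0.0344). Il1r1, the signalling interleukin 1 receptor, had 0.69, 2.02 and 4.50 CPM in Il1rl1-high and 1.07, 1.57 and 3.46 CPM in Il1rl1-low cells (0.39, adjusted p = 0.0826), and it was called after matching on UMIs (0.64, adjusted p = 0.025). Il1r2, the decoy receptor, was called (1.25, SE 0.29, adjusted p = 0.00645) at no more than 1.5 and 0.76 CPM. Of the 6 tested members of this receptor family, 1 was higher and 0 lower, beside 4% and 2.04% of all genes, with a median of 0.40. Without control week 12, 2 were higher, beside 3.98% of all genes.

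Of 14 tested genes of NF-kB and inflammatory output, 2 were higher and 0 lower, beside 4% and 2.04% of all genes, with a median of 0.43. Without control week 12, 4 of 15 were higher, beside 3.98% of all genes. Ccl2, the monocyte chemokine, had in Il1rl1-high and Il1rl1-low cells at week 12 308 and 196 CPM in CGRP, 1600 and 732 in magnesium, 318 and 197 in zoledronate, and 54.5 and 57.2 in control callus. At week 4 it had 64.7 and 9.64 CPM in CGRP, 29.5 and 21.8 in magnesium, 41.7 and 19.6 in zoledronate, and 26.1 and 7.62 in control callus. It was higher in 7 of 8 libraries (log2 change 0.93, SE 0.25, adjusted p = 0.0147), and control week 12 was the exception. After matching on UMIs it stood at 0.77 with an adjusted p of 0.0628. Csf1, the macrophage growth factor, had 46.2, 58.3 and 200.1 CPM in Il1rl1-high and 24.9, 41.2 and 118 CPM in Il1rl1-low cells (0.65, SE 0.05, adjusted p = 5.30e-05, higher in 8 of 8). Neither the chemokine Ccl7 (0.80, adjusted p = 0.0594) nor Cxcl12 (0.43, adjusted p = 0.00537, under the fold limit) was called on all cells, but both were without cycling cells and with matched low cells (0.76 and 0.65). Ccl7 was also called without control week 12 (0.99, adjusted p = 0.0354) and after matching on UMIs alone (0.75). Ccl2 and Ccl7 are similar in sequence, and the sources used here do not say how reads that fit both were counted.

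Fosl1 was the AP-1 gene that differed. It encodes the Fos family member FRA1 and had 7.98, 15.1 and 36.1 CPM in Il1rl1-high and 3.39, 7.90 and 16.2 CPM in Il1rl1-low cells (log2 change 1.11, SE 0.10, adjusted p = 6.63e-05, higher in 8 of 8). Its change was 0.42 without cycling cells and 0.49 when low cells were also matched on UMIs, under the fold limit in both. Of the 10 tested AP-1 genes, 1 was higher and 0 lower, beside 4% and 2.04% of all genes, with a median of 0.06. Fos had 42.4 to 130 CPM in Il1rl1-high and 45.2 to 164 CPM in Il1rl1-low cells (-0.27), and Junb stood at -0.25 and Jun at 0.10. Of 16 tested genes of ERK output, Phlda1 alone was called, at 0.59, beside 4% of all genes higher. Its call was lost at 0.55 to 0.58 without CGRP week 12, magnesium week 4, zoledronate week 12 or zoledronate week 4. It stood under the fold limit after matching on UMIs (0.52) and without cycling cells (0.53), where 0 genes of the list were called.

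Of 11 tested marker genes of skeletal stem and mesenchymal cells, 2 were higher and 0 lower. For each list in this paragraph, the shares over all genes were 4% higher and 2.04% lower. Nes, nestin, had 2.90, 5.49 and 16.1 CPM in Il1rl1-high and 1.09, 2.45 and 5.51 CPM in Il1rl1-low cells (1.31, adjusted p = 0.0014), and Itga6, an integrin chain that binds laminin, stood at 0.72 (adjusted p = 0.00324) and at 0.56, under the fold limit, after matching on UMIs. Of 18 tested genes of WNT, BMP and TGF beta signalling, 2 were higher, Axin2 (1.03) and Tgfb2 (0.71), and 3 were lower, Dkk3 (-0.84), Bmp2 (-0.80) and Sfrp1 (-0.72). The call of Sfrp1 was lost, at -0.56, without magnesium week 12. Axin2, a WNT target, was at no more than 2.04 CPM in Il1rl1-high and 0.99 CPM in Il1rl1-low cells, and stood at 0.53 (adjusted p = 0.299) without cycling cells. Among 12 CDK inhibitor and p53 genes, Cdkn2c, the inhibitor p18, was higher (0.97) and the stress cytokine Gdf15 lower (-1.10, at no more than 2.49 CPM). Cdkn2c stood at 0.56, under the fold limit, after matching on UMIs and at -0.03 without cycling cells.

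The other lists gave few calls, which stand beside 4% of all genes higher and 2.04% lower. Of 14 serum response factor and YAP targets, Ankrd1 was higher (1.15, at no more than 6.81 CPM) and Acta1 lower (-0.62), and without cycling cells neither was called (0.54 and -0.53). Of 10 contractile genes, Acta1 was the one called, and it stood at -0.48, under the fold limit, without control week 12. Of 15 hypoxia and glycolysis genes, 0 were higher and 1, the mitophagy gene Bnip3, was lower (-0.77, adjusted p = 0.000263, lower in 8 of 8). Of 20 genes of mevalonate and cholesterol synthesis, the pathway that zoledronate blocks at Fdps, 0 were called, 17 had a positive change and the median was 0.22. Fdps itself had 354 to 459 CPM in Il1rl1-high and 261 to 470.2 CPM in Il1rl1-low cells (0.12, adjusted p = 0.177). Of 14 unfolded protein and amino acid response genes, 0 were called. Of 10 interferon response genes, Mx2 (0.93, higher in 6 of 8 libraries), Usp18 (0.70) and Irf1 (0.60) were higher, none above 6.24 CPM in any library. The summed level of the list was 429 to 589 CPM in Il1rl1-high and 501 to 651 CPM in Il1rl1-low cells. That sum was higher in the Il1rl1-high cells of 2 of 8 libraries. Usp18 lost its call without control week 12 (0.61, adjusted p = 0.0639), and Irf1 without that library, CGRP week 4 or magnesium week 12 (0.53 to 0.57). Without cycling cells, 0 of the 7 interferon genes tested were called.

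Levels of the genes shown here changed along the Il1rl1 count, below the limit of 10 UMIs as well as above it. These genes had been called between cells with at most 1 and at least 10 Il1rl1 UMIs, so a difference between the ends was given by their choice. Averaged over the 8 libraries, Akap12 had 274 CPM in cells with 0 or 1 Il1rl1 UMI, 450.3 with 2 to 4, 566 with 5 to 9, 711 with 10 to 19 and 877 with 20 or more. Esm1 had 14.9, 24.2, 33.2, 42.7 and 64.3 CPM over the same 5 classes. Cilp2 had 84.3, 31.6, 25.7, 18.2 and 13.3 CPM, and Scx had 550.2, 409, 353, 327 and 263 CPM, a decrease at each step. Top2a levelled off, with 30.4, 56.3, 68.1, 77.0 and 80.6 CPM, and Fmod had 76.0, 47.4, 40.5, 29.6 and 34.0 CPM. Just inside the limit, cells with 10 or 11 UMIs had 645 CPM of Akap12, 18.5 CPM of Cilp2 and 362 CPM of Scx, and cells just outside, with 8 or 9, had 633, 24.3 and 337 CPM. Scx thus went against its trend there. The level just inside was the higher in 4 of 8 libraries for Akap12, 2 for Cilp2 and 4 for Scx. These averages are a description, and the Il1rl1-high cells are also the deeper ones.

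**Figure D5:**
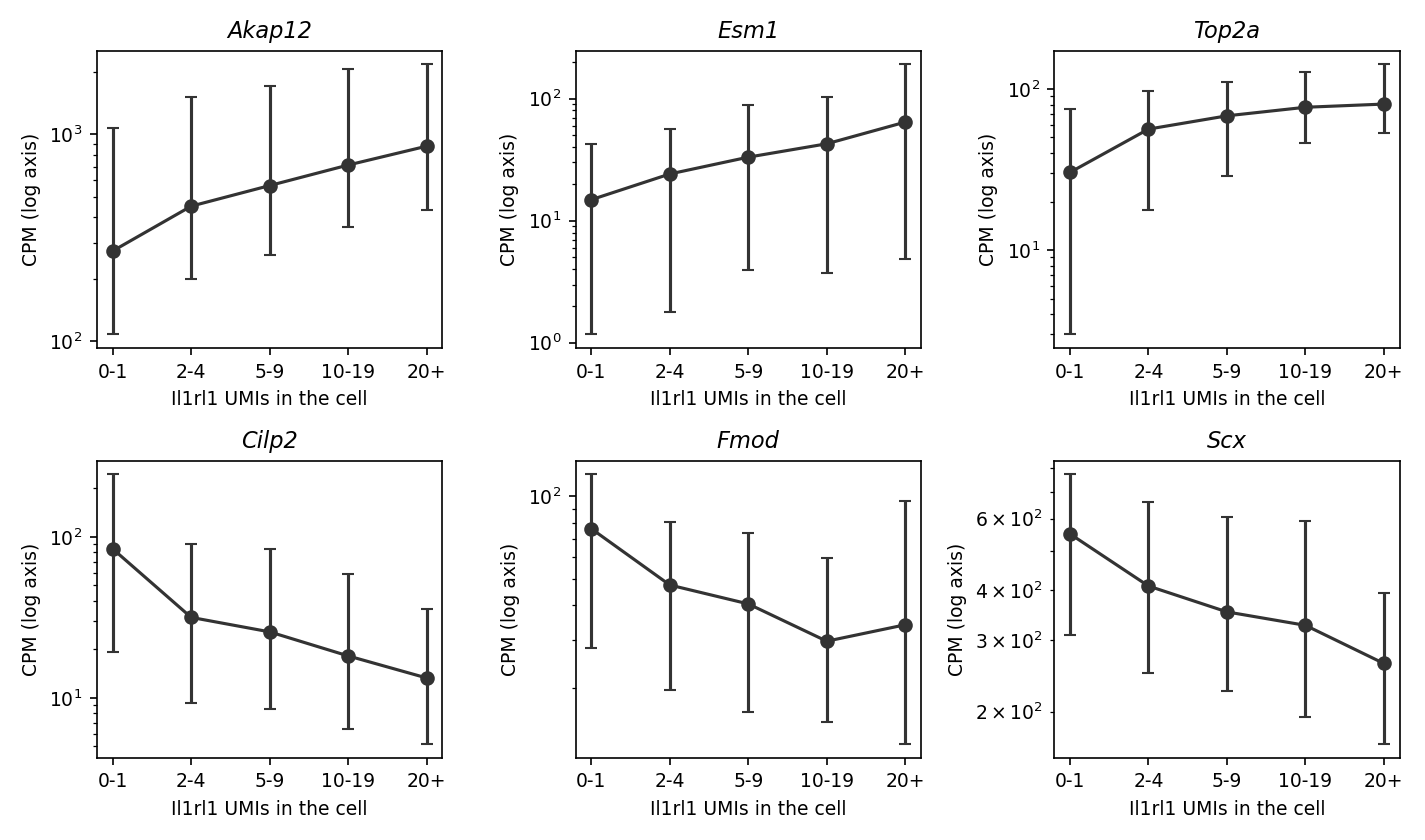
Mean CPM over the 8 libraries (log axes) of 6 genes in cells grouped by their Il1rl1 UMIs; bars run from the lowest to the highest library. Akap12 runs from 274 to 877 CPM and Cilp2 from 84.3 to 13.3 CPM across the 5 classes.

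The week of harvest had 4 libraries on either side. The test of the week 12 difference against the week 4 difference called 0 genes with edgeR, where 1503 of 10077 had an unadjusted p under 0.05, and DESeq2 called 223. Fitted apart, Top2a had a log2 change of 2.43 at week 12 and 0.997 at week 4, and Akap12 had 1.66 and 1.66. Igf1 had -0.84 at week 12 and -1.45 at week 4, and Acan had -1.50 and -0.16. Ccl2 had 0.51 at week 12 and 1.49 at week 4, and Il33 had 0.998 and 0.23. None of these week differences passed the edgeR test.

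Il1rl1-high cells also crossed other groups of callus cells. The share with at least 10 UMIs of Ccl2 was 1.72%, 2.58% and 54.8% (lowest, median, highest library) in Il1rl1-high and 0.31%, 1.37% and 28.3% in Il1rl1-low cells, higher in 8 of 8 libraries, 339 cells in all. The share with at least 10 UMIs of Actg2, a smooth muscle actin, was 1.14%, 6.06% and 13.8% in Il1rl1-high and 1.23%, 5.02% and 9.95% in Il1rl1-low cells, higher in 5 of 8. At least 10 UMIs of Il33 were in 0%, 0.88% and 16.4% of Il1rl1-high and 0.04%, 0.32% and 3.10% of Il1rl1-low cells, higher in 7 of 8. These shares were not thinned, and the Il1rl1-high cells are the deeper ones.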

How the data were processed

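For each library the authors deposited counts, which are whole numbers of UMIs for genes in rows and cell barcodes in columns. Per the submitters' processing notes, reads were aligned with STAR, and the build named is Rnor_6.0. The sources used here do not name the annotation, cell calling or filters, and 0 mitochondrially encoded genes were listed. The 8 libraries held 139656712 to 159685281 UMIs in barcodes with at least 5000 UMIs. The 5000 UMIs were asked of both sides, and no other filter on cells was used. The sources used here do not say whether doublets had been removed, and no doublet caller was run; an alternative left out the top 5% of cells by UMIs in each library.

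Sums of UMIs per library and side were tested with edgeR 4.0.16 in R 4.3.3 (filterByExpr, TMM, quasi-likelihood, 7 residual degrees of freedom) on genes listed in all 8 libraries (10849 of 12282), with library as a block because both sides share a dish. DESeq2 1.42.0 was an alternative. SE is that of the log2 fold change. The fit was tested on simulated data with known changes. Cells were thinned, matched on total UMIs within 5% and counted with numpy 2.4.6, scipy 1.17.1 and pandas 2.3.3 in Python 3.11.15, with seed 1. CPM is UMIs per 1000000 UMIs of the summed cells; it is not scaled by gene length. Poisson and Clopper-Pearson intervals cover counting error alone.

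The members, lists and tests were chosen with earlier results of these data known. Named genes were those called, with at least 20 CPM on average and the same direction in every library, the 12 with the largest and the 12 with the smallest log2 change (67 and 30 passed), besides up to 4 called genes per list and the defining genes of a list. Other genes are named to show where a list was not called. Samples were grouped by treatment and week from the labels, and treatments at 1 week, with 1 library each, were not tested against each other. Some genes that passed these rules are not reported here.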

Additional observations from a re-analysis of the deposited data

Results flagged for a closer look

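Among 28 sets of 8 library values, 6 held a library whose gap to the others passed Dixon's 95% critical value, which chance does for about 1 in 20 sets. Control week 12 stood apart in 3 of them: the share of Il1rl1-high cells (30.5%), the share after thinning (32.2%) and the level of Il1rl1 over all cells with at least 5000 UMIs (541 CPM). These 3 measures share the same transcript. The level in the other libraries was 61.0 to 106 CPM. CGRP week 4 stood apart in the difference in cycling cells, at -0.95 percentage points, and in the log2 ratio of Cox6a2, at -0.27. Magnesium week 12 stood apart in the log2 ratio of Igfbp4, at -0.30.

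Barcodes under 5000 UMIs were left out of every comparison and also held Il1rl1. Its level in them at week 12 was 102 CPM in CGRP, 50.7 in magnesium, 49.2 in zoledronate and 547 in control callus, and at week 4 it was 109 in CGRP, 81.1 in magnesium, 111 in zoledronate and 53.2 in control callus. Control week 12 was therefore highest there too, with 13 of its 652 such barcodes at 10 or more Il1rl1 UMIs.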

How the results depend on the processing

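The counts of 403 higher and 206 lower genes moved by over 1.5 times in these settings. They were 230 and 106 with low cells matched on UMIs, 119 and 114 without cycling cells, 78 and 72 with both together, and 147 and 78 in the week 4 libraries alone. Each of these settings also left fewer cells to sum. Without the library pairing (no replicate block) they were 63 and 28, with 62 and 26 shared. Thinning to 5000 UMIs gave 131 lower genes. Leaving out a library gave 355 to 457 higher and 176 to 262 lower genes. DESeq2 gave 424 and 191. The 0 genes with a week difference were 4 with thinned cells, 1 with high cells from 5 UMIs, 6 without cycling cells, 6 with matching as well, 223 with DESeq2, and 0 to 23 when a library was left out, with 23 without zoledronate week 12. Without cycling cells, Ube2c (-0.042), Nusap1 (-0.072) and Cdkn2c (-0.033) changed sign, and Cdkn2c was at -0.03 with matching too. The part of depth and of the cell cycle in the other calls was not tested further. The share of cycling cells kept its direction and its side of the threshold in each setting run. Those settings changed the thinning, the limits of Il1rl1 UMIs or the libraries used. The share was not counted with low cells matched on UMIs or with the deepest cells left out. The part of depth in it was therefore not tested.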
